A study of Mus musculus with 11 samples.

Results

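The genes described here are 43 genes of meiotic division and of the mitotic spindle, out of 24421 genes in the count table. They were chosen by name for what they do and not by a cut on their values, but with earlier results of these data known. They cover kinases of cell division, the spindle checkpoint and the machinery of anaphase, and the A-, B- and D-type cyclins with their kinases. The regulators of those kinases, cohesin and the synaptonemal complex, and proteins of the spindle and the centromere are also included. All 43 were found in the table by symbol. RNA was sequenced from mouse metaphase II (MII) oocytes, the mature ovulated eggs, and from late 2-cell embryos, with and without the histone chaperone gene Daxx in the mother's germ line. In every group the mothers carried floxed Daxx alleles (Daxx F/F, the Daxx tm2Led allele), on a mixed C57BL/6J and 129/Sv background, and were over 8 weeks old. Controls had no Cre, and knockouts carried the transgene Tg(Zp3-cre)93Knw, in which the promoter of a zona pellucida gene drives Cre in growing oocytes. There were 3 control and 3 knockout oocyte libraries, taken 20 hours after hCG. The embryos, 3 control libraries (labelled m+z+) and 2 knockout libraries (m-z+, replicates 2 and 3), came from such eggs fertilized in vitro with sperm of 8-week-old JF1 males and were collected 33 hours after fertilization. Each library held 50 pooled oocytes or embryos from 2 to 3 females, so p-values measure the spread between pools.

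An MII oocyte waits in the metaphase of its last meiotic division. Cyclin B with its partner kinase Cdk1 keeps it there, because the anaphase-promoting complex (APC/C), which marks cyclin B and securin for destruction, is held back by the Mos kinase pathway and by the inhibitor Fbxo43 (Emi2). Fertilization lifts this block. The first mitosis then follows with stored maternal transcripts, most of which are cleared while the embryo's own genome is switched on at the 2-cell stage.

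Sequencing depth was 32582998 to 39798586 counted reads in oocytes but 17978192 to 25308468 in embryos, so low counts are less precise in embryos. Daxx itself, the targeted gene, ranged from 86.2 to 97.2 CPM (reads per 1000000 counted reads) in the control oocyte libraries and from 7.83 to 8.40 in the knockouts. Control embryos ranged from 35.2 to 46.7 CPM for Daxx and knockout embryos from 22.8 to 25.5. The labelled stages matched their marker genes: 10 oocyte markers together took 15213 to 15866 CPM in oocytes and 1723 to 2266 in embryos, and 10 markers of the 2-cell embryo took 3.34 to 9.04 CPM in oocytes and 555 to 778 in embryos. Of 18 granulosa and cumulus cell markers, 6 exceeded a mean of 1 CPM in each oocyte group, 8 in control embryos and 9 in knockout embryos, and the list summed to 102 to 115 CPM in oocytes and 304 to 385 in embryos. Nr5a2 held most of the sum. Over the control oocyte libraries Cyp19a1 followed with 2109 reads, Kitl with 1004 and Cyp11a1 with 744, and in control embryos Amhr2 had a mean of 44.6 CPM. Amh, Foxl2, Inha and Ptx3 had between 0 and 17 reads in all libraries of a group. Blood markers summed to at most 3.78 CPM. The 11 spermatid markers summed to 202 to 223 CPM in oocytes and 235 to 269.8 in embryos, of which Odf2 held 199 CPM in control oocytes and 239 in control embryos. Whether any of these reads came from other cell types was not tested, nor was their part in the stage results.

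From oocyte to embryo the division genes did not move as a block. In controls 41 of the 43 had enough reads to be tested (edgeR's quasi-likelihood test, adjusted over all genes, threshold 0.05). Of these, 16 rose (39.0%) and 21 fell (51.2%), 37 in all (90.2%). Among all 15577 genes tested, 83.1% changed, 43.1% upward and 40.0% downward, so the members' shares stand near a background in which most genes changed. The median log2 change was -0.22 for the members and 0.07 for all genes tested. A fall of at least 4-fold was seen for 5 members (Mos, Bub1b, Bub3, Ccnb3 and Pttg1), 12.2% against a background of 13.1%. A rise of that size was seen for 2 members (Cdc25c and Ccnd1), 4.88% against a background of 23.2%. Counting libraries alone, 17 of the 41 tested members were higher in every control embryo library than in every control oocyte library and 21 were lower throughout, against 44.3% and 40.7% of all genes tested. Mad2l1, Smc1b, Wee1 and Wee2 did not pass the test, and Ccna1 and Rec8 had too few reads to enter it. Summed over the 43 genes, the members took 0.878% to 0.899% of the counted reads in each oocyte library and 0.618% to 0.674% in each embryo library. CPM values are shares of the counted reads, and the log2 changes use library totals scaled by TMM factors, so both are relative. Fewer transcripts per embryo and a smaller share of a changed total therefore cannot be told apart.

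**Figure D1:**
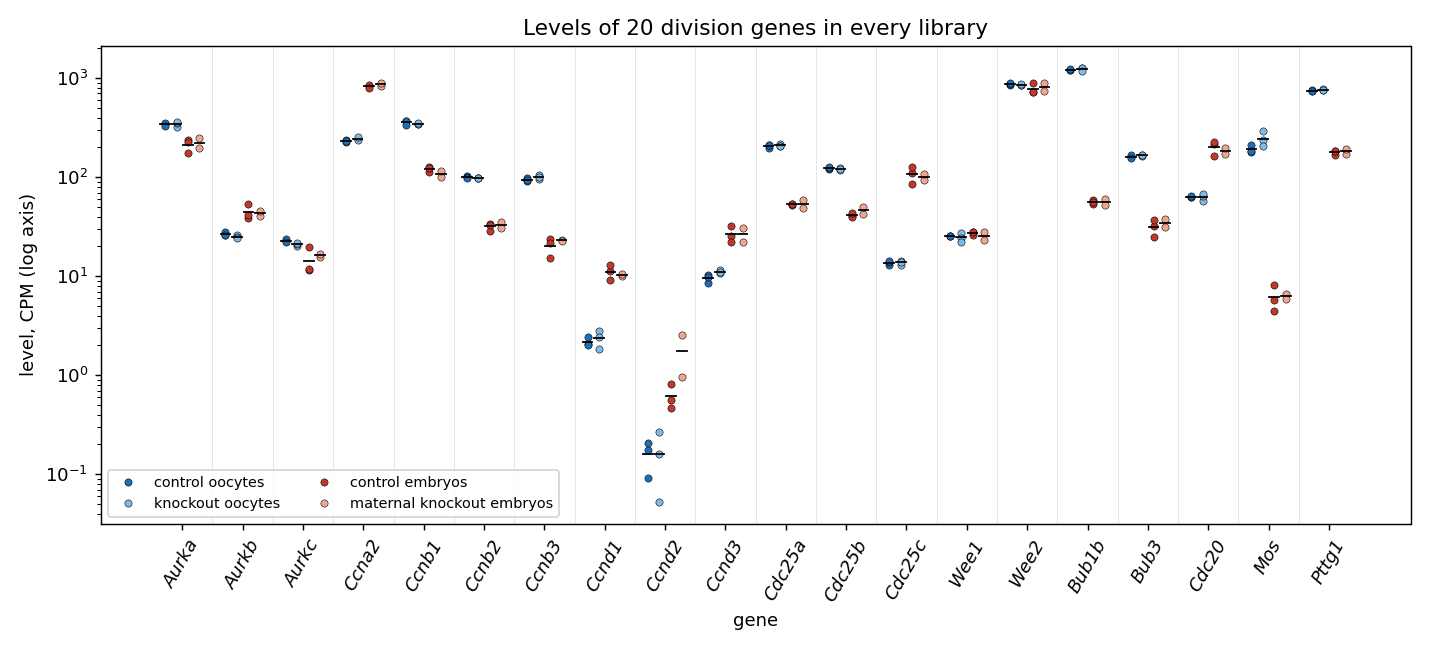
Level of 20 of the 43 genes in every library, in CPM on a log axis, by group; each point is a library and each short horizontal line a group mean. Bub1b and Mos sit far lower in the embryo libraries than in the oocyte libraries and Cdc25c sits far higher; control and knockout libraries of a stage lie close together for most genes, with Ccnd2 in embryos as an exception.

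Of the genes named above for the metaphase arrest, Mos, Fbxo43 and Ccnb1 fell, by very different amounts, while Cdk1 rose. Mos, the kinase upstream of the MAP kinase pathway that maintains the arrest, had 214, 180.5 and 185 CPM in the control oocyte libraries and 8.07, 5.75 and 4.47 in the control embryo libraries. Knockout oocytes had 293, 237 and 207 CPM of Mos and knockout embryos 6.64 and 5.94. No oocyte library came near the embryo range, and the change was -5.02 (SE 0.19) on the log2 scale in controls, a 32.5-fold fall (adjusted p = 4.74e-10). Fbxo43, the APC/C inhibitor of the arrested egg, fell far less, from 212 ± 2.13 CPM (SD, n = 3) to 135 ± 18.0 (log2 -0.67, SE 0.11). The main cyclin of the arrest moved the same way: Ccnb1 stood at 365, 367 and 337 CPM in control oocytes and 114, 127 and 123 in control embryos, a log2 change of -1.58 (SE 0.084). In the knockouts Ccnb1 stood at 341, 344 and 353 CPM in oocytes and 100.3 and 115 in embryos. Oocyte and embryo libraries did not overlap for any of these genes. In controls the same held for 44.3% of all genes tested upward and 40.7% downward.

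Ccnb2, the second B-type cyclin of mitosis and meiosis, had 104, 99.8 and 98.1 CPM in control oocytes and 28.5, 33.7 and 33.2 in control embryos (log2 -1.69, SE 0.10). Knockout oocytes had 98.3, 98.6 and 98.0 CPM and knockout embryos 35.1 and 30.5. Ccnb3, a cyclin used in female meiosis to reach the first anaphase, dropped further, from 91.1, 98.9 and 92.8 CPM to 23.9, 21.4 and 15.3 in controls (log2 -2.25, SE 0.16, a 4.75-fold fall). Its knockout libraries had 105, 96.3 and 99.5 CPM in oocytes and 23.2 and 22.7 in embryos. All 3 B-type cyclins fell, and the 2 stages did not overlap in either genotype. Among all genes tested 40.0% fell in controls. Without overlap of the stages, 40.7% of all genes lay lower in controls and 40.5% in knockouts.

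The A-type cyclin and the kinases went the other way. Ccna2, which partners Cdk2 in S phase and Cdk1 at entry into mitosis, had 228, 237 and 230.1 CPM in control oocytes and 838, 844 and 796 in control embryos, a log2 rise of 1.81 (SE 0.081, adjusted p = 1.65e-09). The knockouts had 242, 239 and 254 CPM in oocytes and 829 and 902 in embryos, again without overlap of the stages. By reads per kilobase of the deposited gene width, Ccna2 moved from rank 750 of all genes in control oocytes to rank 95 in control embryos. For the members this width was a median of 0.845 of the merged exon length in a reference annotation (quartiles 0.640 and 0.983). Ranks and shares per kilobase are therefore approximate between genes. Of the exonic bases of Ccna2, 12.5% also lie in Exosc9 on the opposite strand, and Exosc9 rose by 0.44 on the log2 scale. Cdk1 rose from 88.9 ± 6.65 to 224 ± 14.0 CPM (log2 1.31, SE 0.090) and Cdk2 from 26.1 ± 1.11 to 68.6 ± 16.6 (log2 1.36, SE 0.15). Ccna1, the A-type cyclin of the male germ line, had 1 read in all libraries together. Within the A- and B-type cyclins, compared per kilobase, Ccna2 held 25.6 ± 0.686% (SD, n = 3) of the control oocyte total and 79.2 ± 1.05% in control embryos. Ccnb1 held 47.8 ± 0.870% in oocytes and 14.1 ± 0.748% in embryos. The leading cyclin transcript of the family was Ccnb1 in all 6 oocyte libraries and Ccna2 in all 5 embryo libraries.

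**Figure D2:**
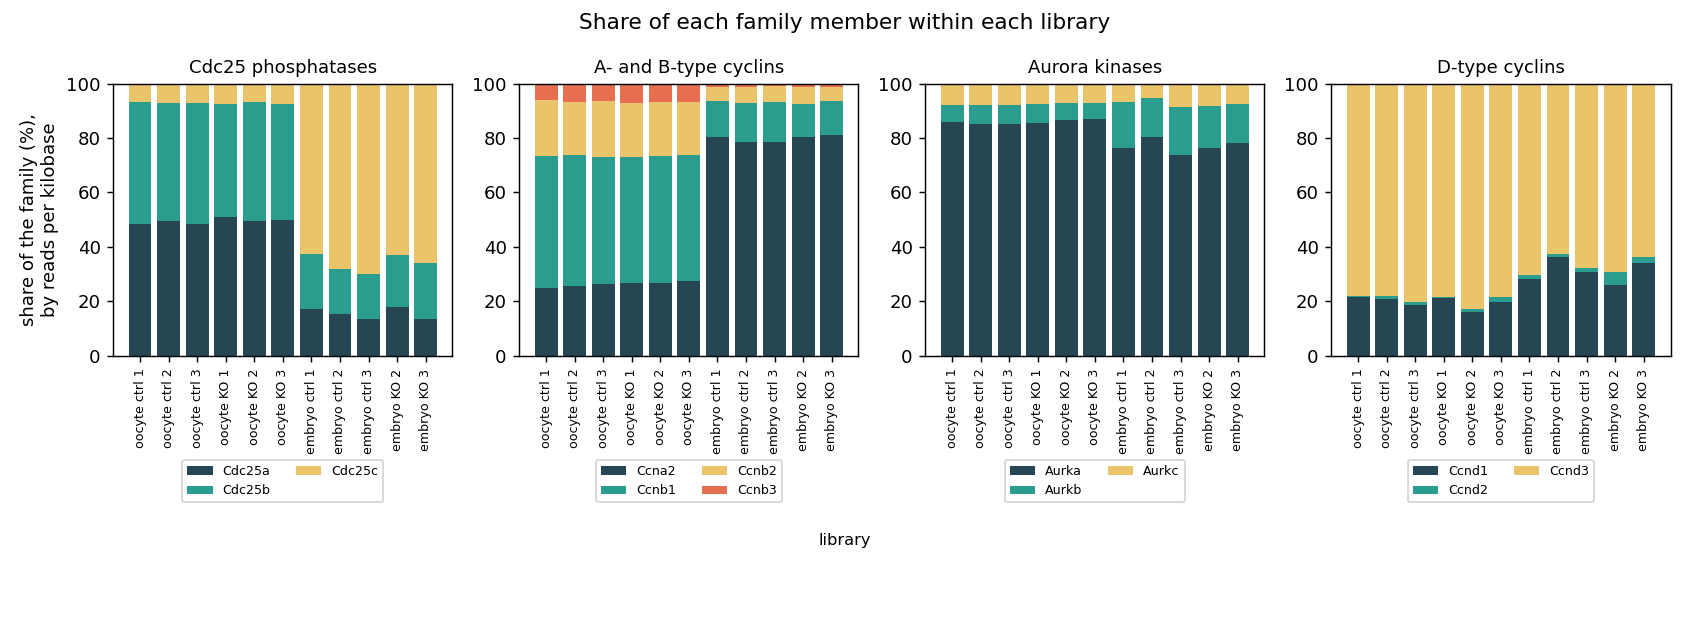
Share of each family member within each of the 11 libraries, in percent of the family's reads per kilobase, as stacked bars for the Cdc25 phosphatases, the A- and B-type cyclins, the Aurora kinases and the D-type cyclins. Cdc25c goes from a mean of 7.07% to 66.8% of its family in controls, and Ccna2 takes the place of Ccnb1, in control (ctrl) and knockout (KO) libraries alike.

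The Cdc25 phosphatases, which activate Cdk1 by removing inhibitory phosphates, exchanged members. Cdc25a had 197, 211 and 209 CPM in control oocytes and 52.0, 54.0 and 54.1 in control embryos (log2 -1.97, SE 0.086). Cdc25b, the member that mouse oocytes need to resume meiosis, had 122, 123 and 128 CPM in control oocytes and 40.5, 39.3 and 43.8 in control embryos (log2 -1.62, SE 0.092). Cdc25c had 12.9, 13.8 and 14.1 CPM and 86.0, 109.6 and 127 CPM in the same libraries, the largest rise of any tested member (log2 2.95, SE 0.14, 7.73-fold, adjusted p = 2.47e-09). The knockouts repeated the pattern with Cdc25c at 14.4, 13.1 and 13.9 CPM in oocytes and 94.1 and 109 in embryos. In the knockouts Cdc25a stood at 218, 208 and 208 CPM in oocytes and 58.4 and 48.4 in embryos. The corresponding values for Cdc25b were 119, 123 and 119.9 and 42.2 and 50.3 CPM. Per kilobase, Cdc25c went from 7.07 ± 0.129% (SD, n = 3) of the family to 66.8 ± 3.78% in controls, and Cdc25a from 48.9 ± 0.706% to 15.4 ± 1.82%. Of the exonic bases of Cdc25c, 12.7% lie in a gene model on the opposite strand (Gm3550).

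Neither Wee kinase, the enzymes that place the inhibitory phosphates on Cdk1, passed the test. Wee2, the oocyte form, had 852, 870.3 and 884 CPM in control oocytes and 716, 892 and 720.5 in control embryos, and the 2 ranges overlapped (log2 -0.19, SE 0.10, adjusted p = 0.102). Without control embryo replicate 2, the highest of its group, the change was -0.31 (adjusted p = 0.00546 by edgeR). Its knockout libraries had 844, 851 and 864 CPM in oocytes and 748 and 897 in embryos. Wee1, the somatic form, had 25.7, 25.4 and 25.4 CPM and 28.1, 26.3 and 28.1 CPM in the control libraries (log2 0.08, SE 0.11, adjusted p = 0.500), and 27.3, 24.4 and 22.3 and 28.3 and 22.9 in the knockouts. Per kilobase Wee2 held 97.6 ± 0.0595% of the pair in control oocytes and 97.1 ± 0.443% in control embryos, and its rank among all genes was 111 at both stages.

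The spindle checkpoint delays anaphase until all kinetochores are attached. Of the 4 checkpoint genes described in this paragraph Bub1b, Bub3 and Bub1 fell, by different amounts, and Mad2l1 did not pass the test. Ttk, which also acts in the checkpoint, is given below with the kinases. Bub1b, which encodes the checkpoint protein BubR1, was among the most abundant transcripts per kilobase in control oocytes (rank 97) and stood at rank 4151 in control embryos. Its libraries had 1217, 1203 and 1234 CPM in control oocytes and 53.6, 58.4 and 56.4 in control embryos. The knockouts had 1276, 1253 and 1190.2 CPM in oocytes and 60.4 and 52.2 in embryos. This was a 22.1-fold fall with little spread (log2 -4.46, SE 0.090, adjusted p = 5.90e-12). Bub3, the partner that brings Bub1 and BubR1 to kinetochores, had 159.6, 168 and 158 CPM in control oocytes and 25.1, 31.9 and 37.2 in control embryos (log2 -2.39, SE 0.13). Its knockout oocytes had 164, 168 and 168 CPM and its knockout embryos 31.2 and 38.1. Bub1, the checkpoint kinase, fell only from 144 ± 1.46 to 98.3 ± 18.1 CPM (log2 -0.57, SE 0.13), so that per kilobase Bub1b was 91.8 ± 0.0861% of the pair in control oocytes and 43.3 ± 5.17% in control embryos. Mad2l1, which encodes the protein that inhibits Cdc20, had 195 ± 2.47 CPM in oocytes and 188 ± 5.46 in embryos and did not pass the test (log2 -0.07, SE 0.079, adjusted p = 0.417).

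Among the anaphase genes, securin and separase moved in opposite directions. Pttg1, which encodes securin, had 735, 757 and 742 CPM in control oocytes and 167, 182 and 185 in control embryos (log2 -2.09, SE 0.081, a 4.25-fold fall). The knockouts had 759, 777 and 766 CPM of Pttg1 in oocytes and 171 and 193 in embryos. Espl1, which encodes separase, the protease that opens cohesin, rose from 234 ± 11.5 to 418 ± 61.3 CPM (log2 0.81, SE 0.10). The 2 activators of the APC/C also parted. Cdc20, the activator at metaphase, had 62.4, 62.4 and 64.0 CPM in control oocytes and 164, 216 and 228 in control embryos, a rise (log2 1.66, SE 0.12). Fzr1 (Cdh1), the activator of mitotic exit and of the earlier prophase arrest, had 116, 118 and 120.2 CPM and 30.5, 41.2 and 32.4 CPM, a fall (log2 -1.79, SE 0.12). In the knockouts Cdc20 had 57.4, 64.7 and 67.5 CPM in oocytes and 170.4 and 198 in embryos. Knockout libraries had 118, 121 and 119 CPM of Fzr1 in oocytes and 41.5 and 41.7 in embryos, so that the stages did not overlap for either gene. Per kilobase Cdc20 went from 31.8 ± 0.158% of the pair to 83.5 ± 2.17% in controls and from 31.7 ± 1.68% to 79.5 ± 1.71% in knockouts.

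Of the 8 genes for division kinases and their partners, 7 fell and 1 rose, where 40.0% of all genes tested fell and 43.1% rose. The one that rose was Aurkb, the kinase of the chromosomal passenger complex in mitosis, with 25.9, 28.0 and 26.3 CPM in control oocytes and 38.5, 41.7 and 53.4 in control embryos (log2 0.71, SE 0.13, adjusted p = 0.000270). Aurka, the kinase of the spindle poles, had 345, 348 and 329 CPM and 176, 236 and 226 CPM (log2 -0.71, SE 0.11). Aurkc, the germ line counterpart of Aurkb, had 22.8, 23.6 and 22.1 CPM and 11.6, 11.7 and 19.5 CPM (log2 -0.70, SE 0.19, adjusted p = 0.00415). All 3 kept their stages apart in the control libraries. In the knockouts Aurkb had 26.3, 25.0 and 24.2 CPM in oocytes and 40.4 and 45.6 in embryos. Aurka had 323, 351 and 363 and 199 and 249 CPM there. Knockout values of Aurkc were 20.4, 21.2 and 21.8 CPM in oocytes and 15.6 and 16.9 in embryos. Aurka remained the leading Aurora transcript, with 85.4 ± 0.299% of the family per kilobase in control oocytes and 76.8 ± 3.29% in control embryos, and the share of Aurkb went from 6.73 ± 0.233% to 16.2 ± 1.71%.

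Plk1, the polo-like kinase of mitotic entry and exit, fell from 271 ± 1.60 to 97.2 ± 17.3 CPM (log2 -1.51, SE 0.11). Plk4, the kinase of centriole duplication, fell from 353 ± 5.40 to 302 ± 28.5 CPM (log2 -0.25, SE 0.094, adjusted p = 0.0273), a call lost with DESeq2 (-0.15), with RLE size factors (-0.15), without any 1 of the control oocyte libraries (-0.26 to -0.27) and without control embryo replicate 3 (-0.16). Ttk (Mps1), the kinase that starts checkpoint signalling, fell from 452 ± 23.4 to 167 ± 16.1 CPM (log2 -1.46, SE 0.10). The passenger complex subunits Birc5 (survivin) and Incenp fell as well. Birc5 changed from 426 ± 20.4 to 187 ± 11.9 CPM (log2 -1.21, SE 0.086) and Incenp from 290.4 ± 7.69 to 214 ± 13.6 (log2 -0.47, SE 0.080).

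The 3 D-type cyclins, which start the cell cycle from G1 in somatic cells, all rose from low levels. Ccnd1 had 2.06, 2.44 and 2.03 CPM in control oocytes and 9.12, 11.3 and 12.9 in control embryos (log2 2.32, SE 0.20, a 5.00-fold rise). Ccnd3 had 8.44, 10.2 and 9.92 CPM and 25.6, 22.0 and 31.8 CPM (log2 1.45, SE 0.16). Ccnd2 was nearly silent in oocytes, with 3 to 8 reads in each control library, and had 9 to 19 reads in each control embryo library, or 0.0921, 0.176 and 0.208 CPM against 0.556, 0.470 and 0.825 (log2 1.89, SE 0.48, adjusted p = 0.00305). The stages did not overlap for any of the 3. Among all genes tested in controls, 43.1% rose and 44.3% lay higher in embryos without overlap. Knockout oocytes and embryos had 2.80, 1.86 and 2.44 and 10.2 and 10.5 CPM of Ccnd1. For Ccnd3 they had 11.7, 10.7 and 10.9 and 30.7 and 22.2 CPM. Per kilobase Ccnd3 held 78.6 ± 1.26% of the family in control oocytes and 66.9 ± 3.96% in control embryos. Of the exonic bases of Ccnd1, 23.4% also lie in a gene on the opposite strand (LTO1), whose level went from 1.16 to 24.8 CPM. The strand setting of the authors' counting is unknown here, so reads of such neighbours cannot be told apart.

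The genes of cohesin and of the synaptonemal complex, which hold and pair chromosomes in meiosis, moved in different directions. Rec8, the meiotic kleisin that separase cuts, had no reads in the 6 oocyte libraries. It had 9, 6 and 11 reads in the control embryo libraries and 16 and 10 in the knockouts. Against a limit of 3 reads over all oocyte libraries of a group, the level in embryos was at least 16.0-fold higher in controls and at least 21.4-fold higher in knockouts, by counting alone. Stag3, the meiotic cohesin subunit that accompanies Rec8, rose from 9.50 ± 0.976 to 22.5 ± 3.65 CPM (log2 1.22, SE 0.16). Sycp3, which builds the axis of meiotic chromosomes, rose from 22.3 ± 1.22 to 67.9 ± 8.46 CPM (log2 1.58, SE 0.12). The exons of Sycp3 share 52.2% of their bases with Chpt1 on the opposite strand, and Chpt1 rose from 4.39 to 17.1 CPM. Smc1b, the meiotic form of a cohesin core subunit, had 26.4 ± 0.809 and 27.0 ± 6.82 CPM and did not pass the test (log2 0.01, SE 0.16, adjusted p = 0.973). Smc3, the core subunit shared by mitotic and meiotic cohesin, fell from 307 ± 5.24 to 239 ± 21.3 CPM (log2 -0.38, SE 0.092).

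Of the 5 spindle and centromere members 4 rose, by at most 2.00-fold, and 1 fell. Among all genes tested 43.1% rose and 40.0% fell, and the longer list of spindle and cytokinesis genes given below moved in both directions. Tpx2, which activates Aurora A on spindle microtubules, rose from 241 ± 11.8 to 365 ± 42.5 CPM (log2 0.57, SE 0.10). Kif11 (Eg5), the motor that pushes spindle poles apart, rose from 85.8 ± 2.90 to 157 ± 15.9 CPM (log2 0.84, SE 0.092). Kif20a, a motor of cytokinesis, rose from 183 ± 10.3 to 371 ± 22.0 CPM (log2 1.00, SE 0.085). Of its exonic bases, 29.3% lie in Cdc23 on the opposite strand, and Cdc23 rose by 1.36 on the log2 scale. Cenpa, the histone H3 variant of centromeres, rose from 46.0 ± 6.71 to 78.8 ± 19.1 CPM (log2 0.75, SE 0.16). The chromokinesin Kif4 fell from 332 ± 22.7 to 289.6 ± 8.08 CPM (log2 -0.22, SE 0.085, adjusted p = 0.0284), a call lost with DESeq2 and with RLE size factors (-0.12 in each) and without control oocyte replicate 3 (-0.17). Of its exonic bases, 15.1% lie in Pdzd11 on the opposite strand, which fell by 1.25 on the log2 scale.

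Many genes of mitosis carry 2 short promoter elements, CCAAT, bound by NF-Y, and TTTGAA, the cell cycle homology element bound by the DREAM and MuvB complexes. RefSeq promoter windows (GRCm38.p6, 250 bases before to 50 after the start) were found for 32 of the 43 members. CCAAT on either strand (CCAAT or ATTGG) was present in 25 of the 32 (78.1%), against 37.9% of 27025 genes with a window. TTTGAA on either strand (TTTGAA or TTCAAA) was present in 12 of the 32 (37.5%), against 18.1%. Both were present in 12 of 32 (37.5%), against 7.12%. By stage change, CCAAT was found in 8 of 9 members that rose and in 13 of 18 that fell, and TTTGAA in 5 of 9 and 7 of 18. These are letter matches, given as a description with no test. The 120 bases before the start are printed for 3 members that rose (Cdk1, Cdc20 and Kif11) and 3 that fell (Ccnb1, Ccnb2 and Bub1b), chosen with the matches known to show both kinds side by side. For Bub1b the window's start lies downstream of the RefSeq gene start at 118598202, so the last bases printed fall inside the gene. Capitals mark the 2 elements on either strand, and sequences run 5′ to 3′ on the gene's strand.
Cdk1, chr10:69352913-69353032, minus strand: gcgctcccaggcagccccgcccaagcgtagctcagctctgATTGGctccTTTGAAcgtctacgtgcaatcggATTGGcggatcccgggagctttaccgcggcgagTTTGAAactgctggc
Cdc20, chr4:118437344-118437463, minus strand: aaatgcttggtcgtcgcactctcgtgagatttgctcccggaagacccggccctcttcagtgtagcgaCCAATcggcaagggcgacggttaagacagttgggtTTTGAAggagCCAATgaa
Kif11, chr19:37376262-37376381, plus strand: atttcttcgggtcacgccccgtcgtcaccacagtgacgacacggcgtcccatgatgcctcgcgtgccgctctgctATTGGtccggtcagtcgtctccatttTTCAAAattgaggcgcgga
Ccnb1, chr13:100786487-100786606, minus strand: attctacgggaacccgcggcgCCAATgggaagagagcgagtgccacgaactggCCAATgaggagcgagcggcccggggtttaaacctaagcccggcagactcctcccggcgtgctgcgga
Ccnb2, chr9:70421555-70421674, minus strand: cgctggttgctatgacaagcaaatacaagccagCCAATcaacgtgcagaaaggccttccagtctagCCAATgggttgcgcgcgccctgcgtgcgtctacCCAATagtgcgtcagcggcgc
Bub1b, chr2:118598091-118598210, plus strand: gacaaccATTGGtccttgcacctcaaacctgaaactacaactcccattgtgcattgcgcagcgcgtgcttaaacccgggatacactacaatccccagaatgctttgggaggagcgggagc
In these stretches the 3 members that rose held both elements, and the 3 that fell held CCAAT and no TTTGAA. The counts above show that this split does not hold for all members, since 7 of the 18 that fell had TTTGAA in the full window. The windows of Tpx2, Ccnd1, Incenp, Ccnd2, Ccna2, Mos, Wee1, Aurkb, Kif20a, Fbxo43 and Cdc25c were not used here.

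The stage change was tested a second time, in the knockout libraries. There 42 members were tested, and 17 rose (40.5%) and 21 fell (50.0%), against 42.5% and 37.7% of all 16592 genes tested. Of the 41 members tested in both genotypes, 16 rose in both, 21 fell in both, and 4 passed in neither. No member passed in only 1 genotype. The same agreement was not counted over all genes, so it is not read as particular to the members. The extra member in the knockouts was Rec8. Again 17 of the tested members lay higher in every embryo library and 21 lower in every one, against 46.4% and 40.5% of all genes tested. For 40 of the 41, the log2 changes of the 2 genotypes lay within 0.5 of each other, and for Ccnd2 they differed by 1.51. Bub1b fell by 4.51 on the log2 scale in knockouts against 4.46 in controls, Cdc25c had 2.83 against 2.95, and Ccna2 had 1.77 against 1.81. Cenpa had 0.42 against 0.75, and its knockout call was lost without knockout oocyte replicate 2 (0.39) or 3 (0.34) and without knockout embryo replicate 3 (0.22). The knockout call of Plk4 (-0.30) was lost with DESeq2 and with RLE size factors (-0.21 in each), without knockout oocyte replicate 3 (-0.26) and without knockout embryo replicate 2 (-0.17). Mos had -5.33 in knockouts and -5.02 in controls. Smc3 had -0.78 (SE 0.071) in knockouts and -0.38 (SE 0.092) in controls. The difference between the genotypes was tested as the interaction.

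**Figure D3:**
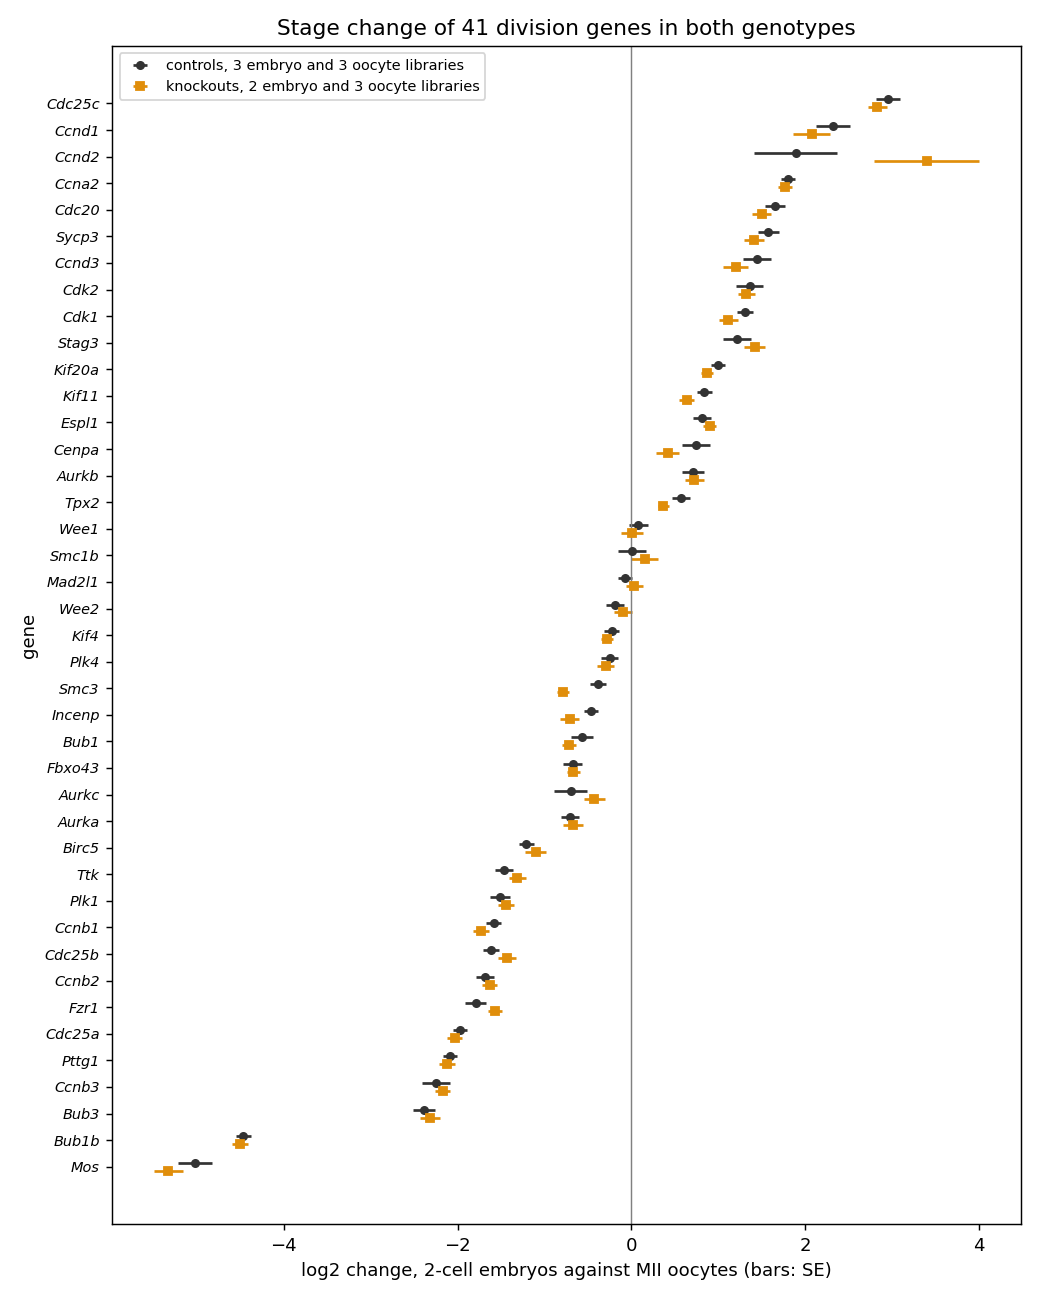
Log2 change from MII oocytes to 2-cell embryos for the 41 genes tested in both genotypes, controls as circles and knockouts as squares, with SE as bars. The 2 genotypes lie close together for most genes; Ccnd2 has the widest bars and the largest gap, and Wee1, Smc1b, Mad2l1 and Wee2 sit near 0.

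Loss of maternal Daxx moved none of the members past the threshold at either stage. In oocytes 0 of 40 tested members passed the test, where 0.583% of all 14235 genes tested did. DESeq2 and limma-voom also called 0, and at an unadjusted p under 0.05 there were 0 members against 10.3% of all genes. The differences ran from -0.13 (Aurkc) to 0.33 (Mos) on the log2 scale, 33 of the 40 lay within 0.1 of no change, and the median SE was 0.047. In embryos 0 of 42 tested members passed, where 0.0260% of 15414 genes did. Again DESeq2 and limma-voom called 0, and at an unadjusted p under 0.05 there were 3 members (7.14%) against 3.19% of all genes. With 2 knockout embryo libraries the median SE was 0.16, and 33 of the 42 lay within 0.2 of no change. At this precision a small difference in embryos was not detectable. Larger ones could also go uncalled, since Ccnd2 did not pass at a log2 difference of 1.47. The 4 genes that passed among all genes tested were each at least 2-fold higher in knockout embryos.

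**Figure D4:**
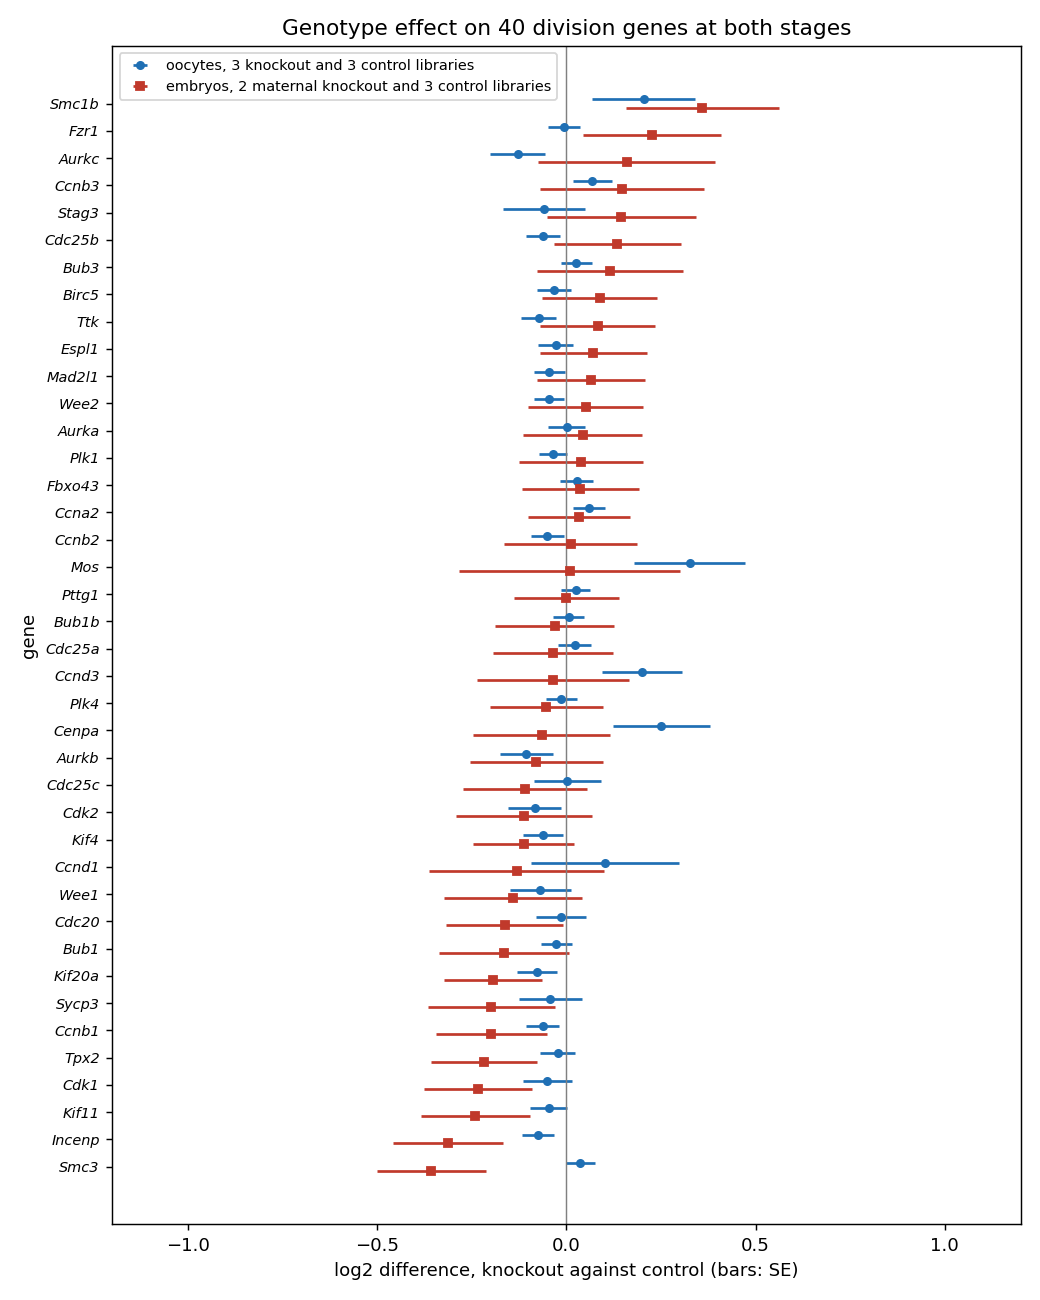
Log2 difference between knockout and control for the 40 genes tested at both stages, oocytes and 2-cell embryos side by side, with SE as bars. Ccna1, Ccnd2 and Rec8 had too few reads to be tested in oocytes and are not shown. In embryos Ccnd2 had a log2 difference of 1.47, the largest of the tested members. Oocyte values cluster around 0 with short bars, embryo values scatter more with longer bars, and Mos is the highest of the oocyte values.

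In oocytes the 3 members with the smallest p were Mos, Ccnd3 and Cenpa. The knockout oocyte values of Mos given above (207 to 293 CPM) overlapped the control values (180.5 to 214), with a log2 difference of 0.33 (SE 0.15) and an adjusted p of 0.557. Without knockout replicate 1, the highest library, the difference was 0.18. Ccnd3 in knockout oocytes lay above every control library, at a log2 difference of 0.20 (SE 0.10, adjusted p = 0.560), and without control replicate 1 it was 0.12. Cenpa had 41.9, 42.4 and 53.8 CPM in control and 63.1, 54.9 and 48.7 in knockout oocytes, overlapping ranges with a log2 difference of 0.25 (SE 0.13, adjusted p = 0.578). Leaving out 1 library, this difference ran from 0.15 without knockout replicate 1 to 0.39 without control replicate 3. Counting libraries alone, Pttg1, Ccna2 and Ccnd3 (3 of 40) lay above all controls and Aurkc (1 of 40) below, where 10.1% and 5.66% of all genes did so.

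Among the markers of other cell types in oocytes, the spermatid gene Prm2 rose in knockouts, from a mean of 1.85 to 5.46 CPM (log2 1.54, SE 0.18, adjusted p = 0.00277 by edgeR), 1 of 6 spermatid markers tested. None of the 8 granulosa and cumulus markers tested passed. The smallest p-values among these belonged to Cyp11a1 (log2 0.44, unadjusted p = 0.00171, adjusted p = 0.127 by edgeR) and Ptgs2 (log2 1.25, unadjusted p = 0.00183, adjusted p = 0.130). The part of such transcripts in the members' genotype values was not tested.

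In embryos the 3 members with the smallest p were Ccnd2, Smc3 and Incenp. Ccnd2 had 2.57 and 0.966 CPM in the knockout embryo libraries, from 65 and 20 reads, against 0.556, 0.470 and 0.825 in controls. The log2 difference was 1.47 (SE 0.49, unadjusted p = 0.00781, adjusted p = 1.00), and without knockout replicate 2 it was 0.63. Knockout oocytes, at 0.0524, 0.159 and 0.265 CPM from 2 to 10 reads, stood at the level of the control oocytes. Smc3 had 263, 235 and 221 CPM in control embryos and 189 and 194 in knockout embryos, without overlap (log2 -0.36, SE 0.14, unadjusted p = 0.0227, adjusted p = 1.00). In oocytes the same gene had 306, 313 and 303 CPM in controls and 327, 319 and 312 in knockouts. Incenp had 199, 219 and 225 CPM in control embryos and 158 and 194 in knockout embryos (log2 -0.31, SE 0.15, adjusted p = 1.00), and without knockout replicate 2 the difference was -0.14. Oocyte libraries had 299, 287 and 285 CPM of Incenp in controls and 288, 285 and 264 in knockouts. Counting libraries alone, Fzr1, Ccnd2 and Smc1b (3 of 42) lay above all controls, and Incenp, Smc3, Kif11 and Kif20a (4 of 42) below, where 11.4% and 6.38% of all genes did so.

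Whether the knockout acted differently at the 2 stages was tested as an interaction over all 11 libraries. Of 42 members tested, 0 passed, against 0.0118% of 17018 genes. DESeq2 and limma-voom called 0 members as well, and at an unadjusted p under 0.05 there was 1 (Smc3), 2.38% against 5.41% of all genes. The interaction for Smc3 was -0.40 (SE 0.12, unadjusted p = 0.00429, adjusted p = 0.912). The next smallest p-values belonged to Incenp at -0.25 (SE 0.13) and Ccnd2 at 1.50 (SE 0.85), both with an adjusted p of 0.936. Without knockout embryo replicate 2 these were -0.08 for Incenp and 0.66 for Ccnd2, and without knockout embryo replicate 3 they were -0.43 and 2.02.

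The other genes of cell division, 184 in 6 lists of which 183 were in the table, were described in the same way and also moved in both directions at the change of stage. In controls 83 of 179 tested rose (46.4%) and 67 fell (37.4%), near the 43.1% and 40.0% of all genes, with a median log2 change of 0.17. The same shares are the background of each list that follows. Of 17 APC/C subunits and ubiquitin-conjugating partners, 5 rose and 7 fell. Among them Cdc23 rose from 64.5 to 168 CPM and Ube2c from 65.5 to 136, while Anapc4 fell from 206 to 60.5 and Anapc2 from 95.6 to 37.2. Of 32 kinetochore and checkpoint genes, 15 rose and 12 fell. Trip13 and its adaptor Mad2l1bp (p31comet), which take checkpoint complexes apart, rose from 5.38 to 58.4 CPM and from 14.3 to 204 CPM. The outer kinetochore gene Nuf2 fell from 311 to 83.2 CPM and Zwint from 70.7 to 20.8. Of 24 genes of cohesin, condensin and shugoshin, 12 rose and 6 fell. The cohesin regulator Pds5a rose from 30.1 to 367 CPM and the condensin subunit Ncapd2 from 28.0 to 200.0. The condensin I subunits Ncaph and Ncapg fell, from 141 to 19.3 and from 638 to 175 CPM. Meikin, the protector of centromeric cohesin in the first meiotic division, fell from 20.2 to 4.81 CPM.

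Of 40 spindle and cytokinesis genes tested, 19 rose and 17 fell. Stil, which is needed for centriole duplication, rose from 12.8 to 167 CPM and the spindle protein Hmmr from 19.6 to 209. Tacc3 and Nusap1, both microtubule-binding spindle proteins, fell from 704 to 134 CPM and from 521 to 134 CPM. Of 48 other cell cycle kinases, cyclins and regulators tested, 24 rose and 18 fell. Ccne1, the cyclin of S phase entry, rose from 2.93 to 553 CPM (log2 7.53), and Skp1, a subunit of SCF ubiquitin ligases, fell from 1879 to 221. Lin37, a subunit of the DREAM complex, fell from 42.8 to 2.51 CPM (log2 -4.11). None of these genes passed edgeR's test for the genotype: 0 of 176 in oocytes, 0 of 179 in embryos and 0 of 180 for the interaction. At an unadjusted p under 0.05 there were 25 in oocytes (14.2%, against 10.3% of all genes), of which 5 (2.84%) were higher and 20 (11.4%) lower in knockouts, against 5.67% and 4.62% of all genes. There were 3 in embryos (1.68%, against 3.19%) and 9 for the interaction (5.00%, against 5.41%). With limma-voom the counts were also 0 in all 3 comparisons, and with DESeq2 they were 0 in embryos and for the interaction but 2 in oocytes. Those 2, named after their values were seen, were Cdk6, a partner kinase of the D-type cyclins (log2 0.75, adjusted p = 0.0392 with DESeq2 and 0.0663 with edgeR), and Haus1, a subunit of the augmin complex of the spindle (log2 -0.44, adjusted p = 0.0150 with DESeq2 and 0.0955 with edgeR).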

How the data were processed

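The deposited table holds whole-number read counts per gene, not normalized, made by the authors; per the submitters' processing notes STAR 2.5.0a, SAMtools and GRCm38 (mm10) were used, and the counting program, its annotation and its strand setting are unknown here. Per the labels' protocols, total RNA was made into libraries with NuGEN's SoLo system. Symbols came from a RefSeq table (GRCm38.p6), which matched 24387 of 24421 gene identifiers. Counts were tested with edgeR 4.0.16 (R 4.3.3; TMM, filterByExpr with a count minimum of 10 and a total minimum of 15, robust quasi-likelihood F test), separately in each pair of groups and over all 11 libraries for the interaction, with Benjamini-Hochberg adjustment over all genes tested and a threshold of 0.05. SE is the absolute log2 change divided by the square root of F. CPM values are counts per 1000000 reads of the library total, and levels between genes use the deposited gene width. The replicates were compared by chi-square, and each pair differed by 5.10 to 37.2 per degree of freedom, so none was a duplicate. The scripts were tested on simulated data. The members and the other lists were chosen with earlier results of these data known. All 43 members are named; values in every library are given for those with at least 4-fold stage change, for families whose members moved apart and for the 3 smallest p-values of a genotype comparison, and up to 3 genes in each direction were taken from each other list. Alternatives were DESeq2 1.42.0, limma-voom 3.58.1, RLE factors, library totals, 2 other filters, a replicate block, 1 fit over all libraries and leaving out each library. Knockout embryo replicate 1 was not analysed here.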

Additional observations from a re-analysis of the deposited data

How the results depend on the processing

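Across the alternatives, the count of members that rose stayed between 15 and 17 in controls and 15 and 18 in knockouts, and the count that fell between 19 and 22 and between 20 and 22. Same-numbered libraries correlated between -0.107 and 0.0867 in their deviations from the group means, so no strong effect shared by replicate number was seen. Whether libraries of the same number were made together is not known here. With the replicate number as a block, 16 members rose and 20 fell in controls, where Kif4 no longer passed (-0.22, adjusted p = 0.0531 by edgeR), and 17 rose and 21 fell in knockouts; 1 member was called higher in knockout oocytes (Mos, log2 0.32, adjusted p = 0.0487 by edgeR, against 0.335 to 1.00 under its other alternatives) and 0 in the other genotype comparisons and the interaction. No other setting called a member there. Sign changed only for members that had not passed. In controls Mad2l1 was 0.0287 with DESeq2 and 0.0289 with RLE size factors. Smc1b was -0.00729 with limma-voom, -0.0130 without a low-count filter, -0.0144 in the fit over all 11 libraries and -0.0196 under the block. In knockouts Wee1 was -0.0165 without a low-count filter and -0.0197 in the fit over all 11 libraries, and Mad2l1 was -0.00366 under the block. Leaving out 1 library each, Smc1b in controls ranged from -0.15 to 0.18, and in knockouts Wee1 ranged from -0.13 to 0.11, Mad2l1 from -0.14 to 0.17 and Wee2 from -0.275 to 0.0432. In knockouts Smc1b passed without oocyte replicate 1 (0.33), Mad2l1 without embryo replicate 2 (0.17) and Wee2 without embryo replicate 3 (-0.28). The causes were not tested. Depth limits Ccnd2, Rec8 and Ccna1, which had at most 65 reads in a library, and 2 knockout embryo libraries limit every genotype value in embryos.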

Other observations

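The other genes of the synaptonemal complex and of meiotic prophase, 21 in the list and 18 tested, also moved both ways at the change of stage: in controls 8 rose (44.4%), 7 fell (38.9%) and 3 did not pass (edgeR), near the 43.1% and 40.0% of all genes tested, with a median log2 change of 0.08. Terb2, which tethers meiotic telomeres to the nuclear envelope, had 2 reads over the 3 control oocyte libraries and 1117 over the 3 control embryo libraries, a mean of 18.6 ± 0.970 CPM (SD, n = 3), and 15.4 CPM in knockout embryos. Terb1, its partner, fell from 39.5 ± 1.31 to 21.6 ± 3.97 CPM (log2 -0.90). Msh5, a subunit of the heterodimer that stabilizes crossover intermediates, rose from 1.03 ± 0.339 to 13.2 ± 2.66 CPM (log2 3.66), while Msh4, its other subunit, fell from 45.0 ± 1.03 to 17.1 ± 0.995 CPM (log2 -1.42). Meioc, which upholds the meiotic programme in germ cells, rose from 25.0 ± 3.17 to 272 ± 36.3 CPM (log2 3.42). In the pairs Terb1 with Terb2 and Msh4 with Msh5, which act as complexes in meiosis, 1 partner rose and the other fell; the pairs were singled out after their values were seen.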
